A study of Mus musculus with 4 samples.

Results

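Long intergenic noncoding RNAs (lincRNAs) on the autosomes were followed in mouse bone marrow-derived macrophages, cells grown in culture from marrow progenitors. A lincRNA was included where its gene ID carries the type lincRNA in the mouse GENCODE M21 annotation, lies on an autosome, and reached a CPM (its share of all counts in a library, scaled to 1e6) of 2 or more in at least 1 library. The rule kept 169 of 4364 autosomal lincRNA entries, out of 52550 gene entries in all. Of the 4364 entries, 923 had at least 1 count in any library. Polyadenylated RNA was sequenced from 4 groups of cells from C57BL/6 mice aged 8 to 10 weeks. They were miR-7 deficient cells with LPS, miR-7 deficient cells without stimulation, wild-type cells with LPS and wild-type cells without stimulation. LPS, the lipopolysaccharide of the bacterial outer membrane and a ligand of Toll-like receptor 4, was given at 100 ng/mL for 12 hours. Each group held 1 library, so a difference between single groups has no replicate check, and the sources used here give neither the sex or number of the mice nor the way the deficiency was made.

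LincRNAs are transcribed by RNA polymerase II between protein-coding genes, are often spliced and polyadenylated like mRNAs, and have no long conserved reading frame. Some act in cis on a neighbouring gene, some scaffold nuclear bodies, some host microRNAs or small nucleolar RNAs, and some bind microRNAs. In macrophages, Toll-like receptor signalling through NF-kB, AP-1 and interferon regulatory factors is known to induce several of them, among them Ptgs2os2, the transcript called lincRNA-Cox2. The microRNA missing from the deficient mice has a known lincRNA partner: Oip5os1, also called Cyrano, carries an extensively paired miR-7 site and in mice promotes the destruction of miR-7.

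The sites through which miR-7 can pair with these lincRNAs are shown because genotype is one of the compared factors. RefSeq gives 2 mature mouse forms, whose seed (bases 2 to 8, in capitals) is the same.
mmu-miR-7a-5p: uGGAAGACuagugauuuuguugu
mmu-miR-7b-5p: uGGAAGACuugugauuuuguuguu
The matching site in a transcript reads GTCTTCC, and GTCTTCCA with a base opposite the first base of the microRNA. In the 30-base stretches that follow, read from GENCODE M21 transcripts, capitals mark this seed match and the longest run that can pair with the rest of miR-7a.
Oip5os1: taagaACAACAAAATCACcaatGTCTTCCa
Dubr: tgttAACAAAgagcagagtccaGTCTTCCa
Norad: aggtcCAAAtttgcagcacccaGTCTTCCt
Neat1: ttgtggttgttggttgAAggttGTCTTCCa
Oip5os1 had a run of 13 bases beside its seed match, the longest among the 169 lincRNAs. The next longest were 7 bases in 1110002J07Rik and 6 bases in Dubr and 4932422M17Rik, while the stretches shown from Norad and Neat1 had 4 and 2. The Oip5os1 site ends at position 2959 of an 8300-base transcript, and the Neat1 site at position 18992 of 20771.

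Promoter windows are shown for lincRNAs with strong LPS changes, to set the sequence beside the response. Each covers 250 bases before to 50 bases after the RefSeq start on GRCm38.p6, minus strand, read in the direction of transcription, with capitals on a motif match.
Ptgs2os2 (chr1:150164899-150165198): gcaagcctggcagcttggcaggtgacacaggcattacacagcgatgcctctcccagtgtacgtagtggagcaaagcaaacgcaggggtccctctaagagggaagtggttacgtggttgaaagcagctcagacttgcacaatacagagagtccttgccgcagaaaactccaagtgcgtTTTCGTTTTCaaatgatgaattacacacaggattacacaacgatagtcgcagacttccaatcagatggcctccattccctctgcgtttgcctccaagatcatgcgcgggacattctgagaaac
AW112010 (chr19:11050517-11050816): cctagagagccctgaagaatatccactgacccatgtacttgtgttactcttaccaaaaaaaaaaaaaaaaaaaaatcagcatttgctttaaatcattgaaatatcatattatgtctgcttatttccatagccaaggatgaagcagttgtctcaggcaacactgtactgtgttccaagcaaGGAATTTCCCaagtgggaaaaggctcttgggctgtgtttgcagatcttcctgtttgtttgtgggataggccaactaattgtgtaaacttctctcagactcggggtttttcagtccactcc
9330175E14Rik (chr8:94435054-94435353): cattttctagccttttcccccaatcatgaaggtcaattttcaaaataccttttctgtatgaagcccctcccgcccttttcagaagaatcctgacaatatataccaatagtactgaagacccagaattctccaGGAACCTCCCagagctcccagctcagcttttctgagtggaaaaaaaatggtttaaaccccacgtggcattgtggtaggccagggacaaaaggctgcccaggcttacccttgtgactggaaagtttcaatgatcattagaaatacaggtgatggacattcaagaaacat
Gm6093 (chr13:33569268-33569567): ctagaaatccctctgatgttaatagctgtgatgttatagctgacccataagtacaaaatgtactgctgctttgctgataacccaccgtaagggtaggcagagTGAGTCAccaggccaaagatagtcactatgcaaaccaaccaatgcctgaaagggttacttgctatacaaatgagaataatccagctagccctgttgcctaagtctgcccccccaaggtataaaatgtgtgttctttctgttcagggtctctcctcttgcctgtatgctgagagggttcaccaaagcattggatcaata
A130077B15Rik (chr10:122569842-122570141): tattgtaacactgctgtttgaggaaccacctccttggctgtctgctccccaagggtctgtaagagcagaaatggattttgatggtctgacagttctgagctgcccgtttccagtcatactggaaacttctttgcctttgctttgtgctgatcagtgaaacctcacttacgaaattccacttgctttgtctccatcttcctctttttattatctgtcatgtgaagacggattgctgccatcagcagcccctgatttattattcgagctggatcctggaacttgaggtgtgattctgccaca
The letters searched on both strands were GGGA and TTCC with any 2 bases between them for NF-kB, GAAA and GAAA with any 2 bases between them for interferon-stimulated response elements (ISRE), and TGANTCA for AP-1. AW112010 and 9330175E14Rik held the NF-kB letters at -70 and -118 from the start, Ptgs2os2 the ISRE letters at -73 and Gm6093 the AP-1 letters at -148. A130077B15Rik, which was lower with LPS, held none of the 3. Among all 32851 RefSeq promoters of this length, 1.47% held the NF-kB letters, 3.44% the ISRE letters and 7.81% the AP-1 letters. A RefSeq promoter was matched for 70 of the 169 lincRNAs, and for 51 its start lay within 500 bases of the M21 start. For AW112010 it lay 5242 bases away. Of those 51, the 8 that rose with LPS held the NF-kB letters once, the ISRE letters in 3 and the AP-1 letters in 2, the 10 that fell held none, and the other 33 held the AP-1 letters in 4. A match is a description of these letters, not a bound site.

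Gene counts summed to 42074624 and 33937823 in the LPS and unstimulated deficient libraries, and to 39178290 and 40745230 in the LPS and unstimulated wild-type libraries, and between 18156 and 18613 genes had a count. The 169 lincRNAs took 0.471% and 0.398% of these counts in the LPS and unstimulated deficient libraries, and 0.649% and 0.393% in the LPS and unstimulated wild-type libraries. Summed macrophage markers (8 of 8 detected) were 14540 and 22980 CPM in LPS and unstimulated deficient cells, against 12750 and 22370 CPM in LPS and unstimulated wild-type cells. Most of this sum was Lyz2, and single markers such as Adgre1 and Fcgr1 were higher with LPS. Summed neutrophil, T-cell, mast-cell, erythroid and stromal lists stayed at or below 11.1 CPM in every library, with Ly6g, Elane and Cd3d at 0. A dendritic-cell list summed to 324 and 155 CPM in deficient and wild-type LPS libraries, against 7.16 and 5.62 CPM in deficient and wild-type unstimulated libraries. Ccr7 gave most of this sum and Flt3 was at 0. The part of other cell types in the results was not tested, and in bulk RNA fewer cells of a type and less RNA per cell cannot be told apart. Xist had 686 and 714 CPM in the LPS and unstimulated deficient libraries, against 0.483 and 0.513 CPM in the LPS and unstimulated wild-type libraries, and the Y-linked Ddx3y had 0.320 and 0.229 CPM in deficient cells against 46.4 and 43.0 CPM in wild-type cells, in the same order. The genotype comparison therefore cannot be told apart from a comparison of the sexes.

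The lincRNAs were mostly low. Per kilobase of exon, their CPM averaged over the 4 libraries had a median of 1.86, against 5.21 for the 10767 autosomal protein-coding genes chosen by the same level rule. The middle 50% of the lincRNAs lay between 0.759 and 4.37 CPM per kb. Their exons summed to a median of 2291 bases, against 4549 bases for those protein-coding genes. The highest level belonged to AW112010, a transcript in mice known to be translated from a non-canonical reading frame and to act in mucosal immunity, at 789 CPM per kb. AY036118 and Gm42418 followed at 698 and 436 CPM per kb, then Gm26825 at 115, Gm26778 at 91.1 and Gm17275 at 49.1. Malat1, a nuclear-speckle RNA, and Norad, which binds Pumilio proteins in the cytoplasm, came next at 48.3 and 45.8 CPM per kb. AW112010, AY036118 and Gm42418 alone gave 46.4% and 14.1% of the lincRNA counts in LPS and unstimulated deficient cells, and 61.8% and 18.3% in LPS and unstimulated wild-type cells. Levels below are CPM after TMM scaling, not per kb.

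The level rule was met in all 4 libraries by 73 lincRNAs, in 3 by 27, in 2 by 42 and in only 1 by 27. Just inside it stood Gm47242, 1700096K18Rik and D330050G23Rik at 2.02, 2.04 and 2.04 CPM of the total in their highest library, and just outside it 2610035D17Rik, Gm20735 and 5031425F14Rik at 1.99, 1.94 and 1.94. By library, 113 and 137 passed in LPS and unstimulated deficient cells, and 104 and 130 in LPS and unstimulated wild-type cells. A lincRNA admitted by its level in 1 condition had to differ from the other, so counts of changed lincRNAs describe the set and support nothing by themselves. Of the 169, 100 share exonic bases with another annotated gene, 18 of them on the same strand. Whether the counting used strand is not stated, so reads from the shared bases cannot be told apart from those of the overlapping gene. The extent of sharing differed widely among these 100. Of all 50-base windows, 0.493% in 9330175E14Rik and 1.33% in Neat1 also occurred in a transcript of any other gene, against 98.8% in Gm26778.

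LPS changed lincRNAs in both directions. In an additive edgeR model of genotype and LPS over the 4 libraries, 164 of the 169 passed the filter on low counts and were tested. Of these, 30 rose (18.3%) and 29 fell (17.7%) at a Benjamini-Hochberg adjusted p under 0.05, the meaning of these verbs throughout. Over all 12730 genes tested, 18.0% rose and 16.3% fell, and over protein-coding genes chosen by the same level rule 18.5% and 17.1%, so the lincRNA shares lay near the background. Scaled by total counts instead of TMM, which moved the median LPS effect of all genes by -0.41 on the log2 scale, 24 rose and 43 fell, so that 64.2% of calls were lower, against 49.2% with TMM. Over all genes tested the share of calls that were lower moved likewise, to 71.25% by total counts from 47.46% with TMM. The median fitted LPS effect was -0.17 on the log2 scale for the lincRNAs and -0.04 for all genes tested. The first is also -0.17 with the 2 tested lincRNAs at 0 counts in both libraries of a condition put at their bound, which lies on the same side of the median. Among the 127 lincRNAs with a mean CPM of 2 or more, a choice that can still admit a lincRNA through 1 condition, 25 rose and 21 fell. Every one of the 59 called lincRNAs had a ratio in the called direction in both genotypes. The test itself favours such agreement, so it is no separate support for the calls. Fitted effects ran from 1.0 up to 9.96 among those that rose and from -9.33 to -0.67 among those that fell. The other 105 tested lincRNAs had fitted effects between -3.28 and 2.64. In this model the deficient and the wild-type pair stand in for replicates, so p-values measure how alike these 2 pairs are.

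**Figure D1:**
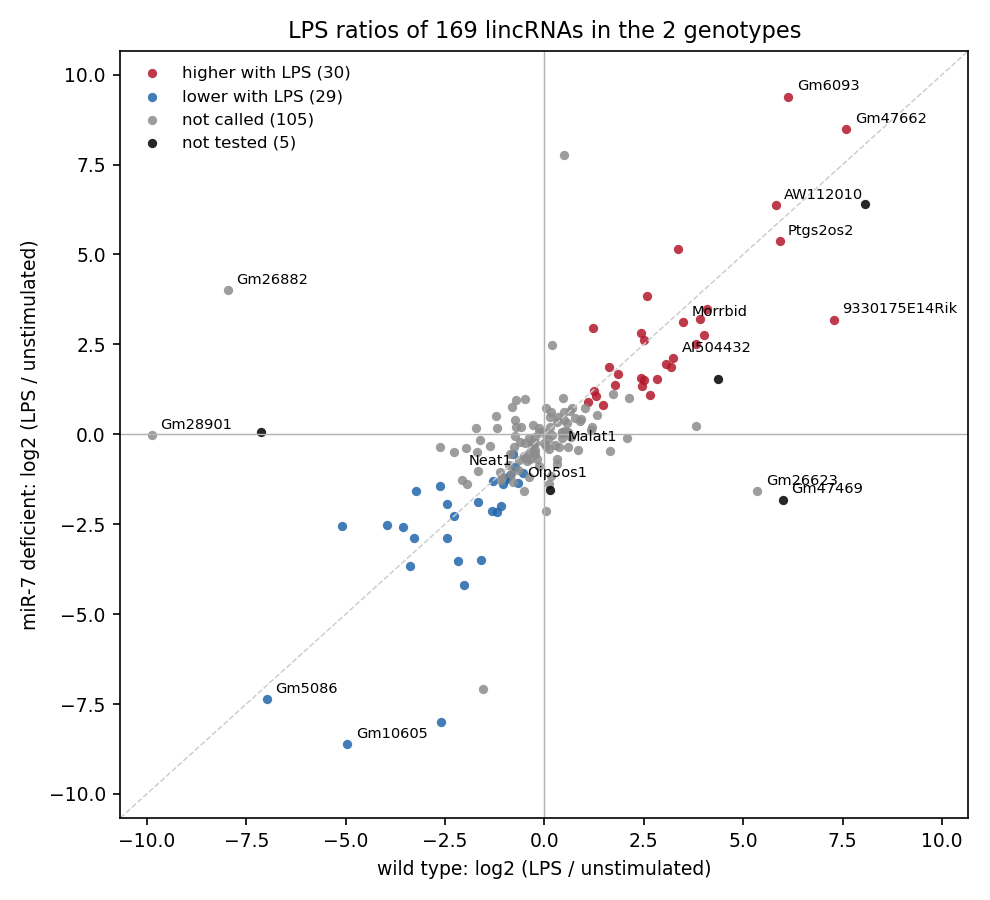
Log2 ratio of LPS over unstimulated CPM for each of the 169 lincRNAs in wild-type cells (x axis) and miR-7 deficient cells (y axis), with 0.5 counts added. The 30 lincRNAs that rose (red) lie at the upper right and the 29 that fell (blue) at the lower left, while Gm26882, Gm26623 and Gm47469 lie far off the diagonal with opposite signs.

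AW112010, the highest per kb, had 1091 CPM with LPS and 13.1 CPM without in deficient cells, and 1407 CPM with LPS and 25 CPM without in wild-type cells, so both LPS libraries stood far above both unstimulated ones. The fitted log2 effect was 6.10 ± 0.28 (SE, adjusted p = 0.00017). Ptgs2os2 (lincRNA-Cox2), at chr1:150159043-150164948 (GRCm38, minus strand), is a known regulator of inflammatory genes in mouse macrophages. Its levels were 10.0 CPM with LPS and 0.229 CPM without in deficient cells, and 18.7 CPM with LPS and 0.299 CPM without in wild-type cells. It rose by 5.71 ± 0.39 on the log2 scale (adjusted p = 0.00029). Morrbid, annotated as Gm14005 in M21, is known in mice to extend the life of short-lived myeloid cells by repressing the pro-apoptotic gene Bcl2l11. Levels of Morrbid were 19.7 CPM with LPS and 2.27 CPM without in deficient cells, and 19.5 CPM with LPS and 1.73 CPM without in wild-type cells. It rose by 3.30 ± 0.28 (adjusted p = 0.00052), with the same level in both LPS libraries within counting error. Bcl2l11 itself did not pass the test, at 48.0 and 49.2 CPM with and without LPS in deficient cells and 41.9 and 52.7 CPM with and without LPS in wild-type cells (log2 effect -0.18 ± 0.20, adjusted p = 0.53).

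The other lincRNAs with the highest fitted effects have provisional names. Gm47662, beside Serpinb9, was at 4.54 CPM with LPS and 0 counts without in deficient cells, and at 2.05 CPM with LPS and 0 counts without in wild-type cells. Against a floor of 3 counts per library the LPS level was higher by at least 59.4-fold in deficient and at least 32-fold in wild-type cells. Gm6093 had 8.52 CPM with LPS and 0 counts without in deficient cells, and 12.8 CPM with LPS and 0.171 CPM without in wild-type cells, and rose by 7.02 ± 0.76 (adjusted p = 0.0012). 9330175E14Rik, which shares exonic bases with Nlrc5, was at 9.40 and 1.02 CPM with and without LPS in deficient cells, and at 11.6 and 0.0641 CPM with and without LPS in wild-type cells. It rose by 4.75 ± 0.94 (adjusted p = 0.011), and its wild-type unstimulated value rests on 3 counts. Gm47242 had 2.27 and 0.0510 CPM with and without LPS in deficient cells, and 1.63 and 0.150 CPM with and without LPS in wild-type cells. Gm26584 had 34.8 and 3.11 CPM with and without LPS in deficient cells, and 35.4 and 2.07 CPM with and without LPS in wild-type cells. Gm28592 had 23.9 and 2.57 CPM with and without LPS in deficient cells, and 23.9 and 1.58 CPM with and without LPS in wild-type cells. In all 3 the LPS libraries were the 2 highest, and the fitted effects were 4.22 ± 0.76, 3.78 ± 0.27 and 3.56 ± 0.30 (adjusted p = 0.0078, 0.00033 and 0.0005).

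LincRNAs that fell were lower in level than those that rose, with a median over lincRNAs of the mean CPM of 2.75 against 7.37. Gm5086 had 0 counts with LPS and 2.19 CPM without in deficient cells, and 0 counts with LPS and 1.88 CPM without in wild-type cells, which is at least 27.4-fold lower in deficient and at least 20.8-fold lower in wild-type cells. Gm10605 had 0 counts with LPS and 5.25 CPM without in deficient cells, and 0.151 CPM with LPS and 5.13 CPM without in wild-type cells. Gm5547 had 0 counts with LPS and 3.41 CPM without in deficient cells, and 0.452 CPM with LPS and 2.84 CPM without in wild-type cells. Both LPS libraries were below both unstimulated ones in all 3, and all 3 fell (adjusted p = 0.0037 for Gm5086). Gm10605 and Gm5547 had fitted effects of -6.21 ± 0.91 and -4.19 ± 1.14 (adjusted p = 0.0036 and 0.033). A130077B15Rik was at 0.908 and 5.40 CPM with and without LPS in deficient cells, and at 0.151 and 5.69 CPM with and without LPS in wild-type cells. Gm14461 was at 0.748 and 9.63 CPM with and without LPS in deficient cells, and at 0.633 and 6.69 CPM with and without LPS in wild-type cells. Both fell, with fitted effects of -3.65 ± 0.71 and -3.54 ± 0.39 (adjusted p = 0.010 and 0.0013). RefSeq lists Gm14461 as protein-coding, so its noncoding type in M21 is not shared by both annotations. Gm38335, Gm13710 and Gm28875 completed the 8 lowest, with fitted effects of -3.19 ± 0.66, -3.10 ± 0.45 and -3.08 ± 0.53 (adjusted p = 0.013, 0.0036 and 0.0066). Their LPS libraries held 0.121 to 0.774 CPM, against 2.09 to 5.81 CPM in their unstimulated libraries.

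The rest of the called lincRNAs were smaller in effect or level. Gm32089 had 22.6 and 3.95 CPM with and without LPS in deficient cells, and 44.3 and 3.16 CPM with and without LPS in wild-type cells, and rose by 3.16 (adjusted p = 0.0015). Gm26797, Gm44751, Gm40723, Gm17200, Gm14221, 1110002J07Rik and Gm16933 also rose, with fitted effects of 1.16 to 2.64. Among those that fell, Gm43672, D030007L05Rik, Gm26751, Gm32914, Gm26694 and 2810414N06Rik had effects of -3.05 to -2.32 and stayed under 1 CPM in both LPS libraries. 4930512J16Rik had 3.31 and 12.2 CPM with and without LPS in deficient cells, and 3.20 and 10.2 CPM with and without LPS in wild-type cells (effect -1.78, adjusted p = 0.0063). 1810058I24Rik, known in mouse macrophages to encode a mitochondrial micropeptide despite its noncoding type, had the smallest called effect. Its levels were 41.4 and 60.2 CPM with and without LPS in deficient cells, and 34.6 and 60.2 CPM with and without LPS in wild-type cells, and it fell by 0.67 (adjusted p = 0.046). F730311O21Rik, Gm20300, A530017D24Rik, Gm26532, Gm45752, C030034L19Rik, Gm37494, Gm26786 and Tmem250-ps had effects of -1.72 to -0.83.

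**Figure D2:**
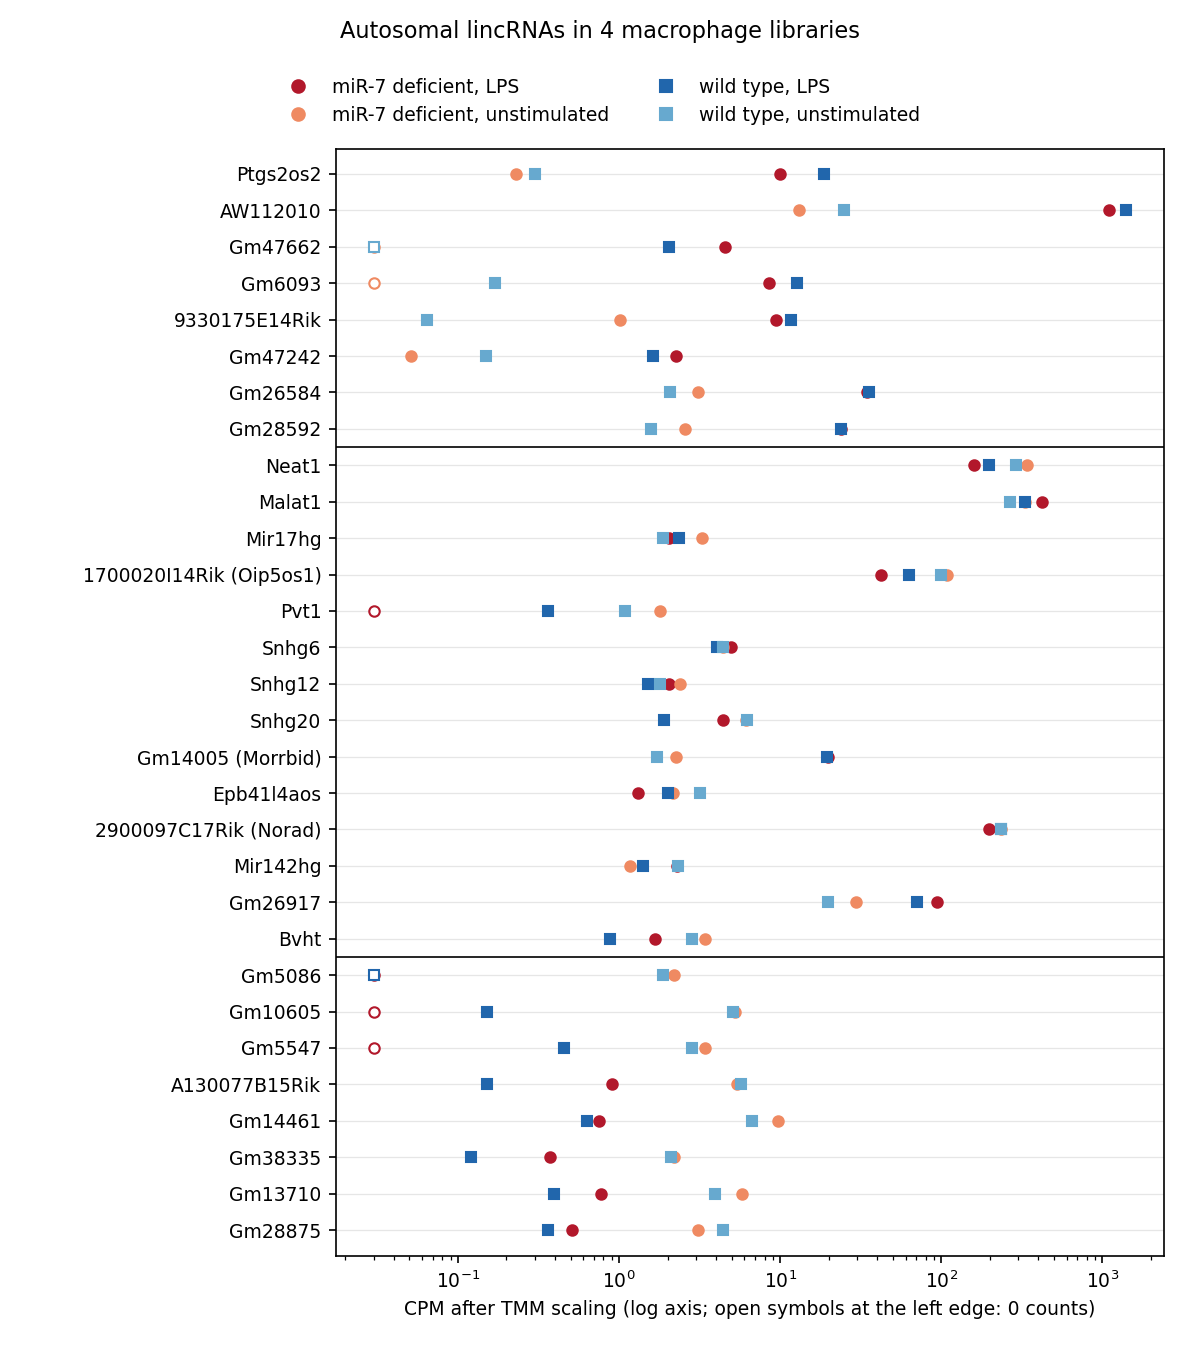
CPM after TMM scaling (log axis) in each of the 4 libraries for the lincRNAs with the 8 highest fitted LPS effects (top), members of a list of well-known lincRNAs (middle) and those with the 8 lowest (bottom), with open symbols for 0 counts. LPS and unstimulated symbols stand apart at the top and the bottom, while Malat1 and Norad in the middle differ little between libraries.

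A list of 59 well-known lincRNA names gave 16 lincRNAs that met the rule; the others carry another gene type in M21, lie on the X chromosome, were below the level or were not found by name. Of the 16, AW112010, Ptgs2os2, Morrbid and Gm26917 rose, Neat1 and Oip5os1 fell, and 10 did not pass the test. Neat1 is the architectural RNA of paraspeckles, nuclear bodies that hold back proteins and edited RNAs. It had 161 CPM with LPS and 342 CPM without in deficient cells, and 198 CPM with LPS and 289 CPM without in wild-type cells. Both LPS libraries were below both unstimulated ones, and Neat1 fell by 0.82 ± 0.21 (adjusted p = 0.029). Gene counts of polyadenylated RNA can miss forms that are not polyadenylated, and they do not tell apart the forms of Neat1. Malat1, its neighbour on chromosome 19, was at 421 and 332 CPM with and without LPS in deficient cells, and at 330 and 265 CPM with and without LPS in wild-type cells (log2 effect 0.33 ± 0.19, adjusted p = 0.22). Of 10 paraspeckle proteins, chosen with these data known, Nono and Hnrnph3 rose, with log2 effects of 0.66 and 1.15. None fell, and the list's median was 0.11, so the calls are near the 18.0% that rose over all genes. Norad had 197 and 234 CPM with and without LPS in deficient cells, and 234 and 236 CPM with and without LPS in wild-type cells, a fitted effect of -0.13 ± 0.19 (adjusted p = 0.63).

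Of the 169 lincRNAs, 7 enclose an annotated microRNA and 3 an annotated small nucleolar RNA, and 0 of either group were called for LPS in edgeR, where 18.0% of all genes tested rose and 16.3% fell. So few members do not set the hosts apart. Mir17hg, the host of the miR-17 cluster, had 2.03 and 3.26 CPM with and without LPS in deficient cells, and 2.35 and 1.88 CPM with and without LPS in wild-type cells. Snhg6 and Snhg12, hosts of small nucleolar RNAs, had fitted effects of 0.01 ± 0.35 and -0.25 ± 0.45, with 4.04 to 4.94 CPM and 1.51 to 2.40 CPM over the 4 libraries. Snhg20 had 4.41 and 6.17 CPM with and without LPS in deficient cells, and 1.90 and 6.2 CPM with and without LPS in wild-type cells (effect -1.08 ± 0.43, adjusted p = 0.10). Of 8 core proteins of small nucleolar ribonucleoproteins, Dkc1 and Nop10 fell, with log2 effects of -2.19 and -1.09. None rose, and the median was -0.51, while 16.3% of all genes fell. Epb41l4aos and Bvht, known as Braveheart from mouse cardiac commitment, had effects of -0.69 ± 0.43 and -1.34 ± 0.46 (adjusted p = 0.27 and 0.068). Pvt1, which lies 52595 bases from the start of Myc, had 0 counts with LPS and 1.78 CPM without in deficient cells, and 0.362 CPM with LPS and 1.09 CPM without in wild-type cells. It did not pass the test (adjusted p = 0.087), whereas Myc fell by 3.68 ± 0.29 (adjusted p = 0.00043), at 1.31 and 16.9 CPM with and without LPS in deficient cells and 1.39 and 17.5 CPM with and without LPS in wild-type cells.

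LPS effects were set beside those of the protein-coding gene with the nearest start, and in 22 of the 26 pairs in which both were called the signs were the same. Where the lincRNA shares exonic bases with that gene, the fitted LPS effects had Pearson's r = 0.85 and Spearman's rho = 0.85 across 38 pairs. Without shared exonic bases, r was 0.61 and rho 0.27 across 34 pairs with starts within 10 kb, 0.22 and 0.29 across 36 pairs 10 to 50 kb apart, and 0.70 and 0.47 across 22 pairs farther apart. These are descriptions across genes measured in the same libraries, and genes are not independent replicates. Both partners were called in 11 of the 38 overlapping pairs, 10 with the same sign. In the 3 other classes both were called in 7, 6 and 2 pairs, with the same sign in 5, 5 and 2. Sign agreement among other pairs of called genes was not taken as a baseline, so these counts show no excess. The pairs given next were chosen after their values were seen.

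Ptgs2os2 starts 64917 bases from Ptgs2, the gene of the inducible prostaglandin synthase, on the other strand. Ptgs2 had 1896 CPM with LPS and 3.24 CPM without in deficient cells, and 2619 CPM with LPS and 31.1 CPM without in wild-type cells, and rose by 7.74 ± 0.80 (adjusted p = 0.0010). Serpinb9, a granzyme B inhibitor 6188 bases from Gm47662, rose by 4.64 ± 0.21, and Kcna3, a potassium channel 3335 bases from AI504432, rose by 2.64 ± 0.30. Gdap10 starts 2327 bases from Nampt, the rate-limiting enzyme of NAD salvage, and the log2 effects were 2.52 ± 0.32 for Gdap10 and 2.33 ± 0.29 for Nampt. Gm12474 starts 340 bases from Tent5c on the other strand, and both rose, by 3.19 ± 0.51 and 1.83 ± 0.18. Gm38335 starts 12991 bases from Fabp5, a fatty acid binding protein, and both fell, Fabp5 by 2.48 ± 0.22. The 10 overlapping pairs of like sign were these. Those that rose were Gm26584 with the arginine transporter Slc7a2 (4.35 ± 0.23), Gm28592 with Phlda1 (3.48 ± 0.26), Gm11110 with Tnfsf9 (3.48 ± 0.32), Gm26637 with the antiviral kinase Eif2ak2 (2.46 ± 0.23), Gm16933 with Htra4 (3.84 ± 0.29), Gm17200 with the chemokine receptor Ccr9 (1.93 ± 0.57) and 9330175E14Rik with Nlrc5, the transactivator of MHC class I genes (3.49 ± 0.23). Those that fell were Gm10605 with Tpbgl (-4.87 ± 0.47), Gm45752 with Dpep3 (-3.46 ± 0.45) and Gm26786 with Zfp90 (-0.97 ± 0.24). Signs differed for Gm47242 (rose) and Fam111a (fell by 0.83 ± 0.19), 2310031A07Rik (rose) and Havcr2 (fell by 1.01 ± 0.21), Gm26582 (rose) and Cdkl2 (fell by 1.49 ± 0.26), and Gm38399 (fell) and Csrp1 (rose by 1.18 ± 0.22). Of these lincRNAs, 2310031A07Rik shares exonic bases with Med7, Gm26582 with G3bp2 as well as Cdkl2, and Gm38399 with Nav1. The part of those genes in the lincRNA counts was not tested. The coding gene nearest to AW112010, Ms4a8a, stayed between 0.664 and 1.52 CPM and did not pass the test (log2 effect 0.07, adjusted p = 0.94).

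**Figure D3:**
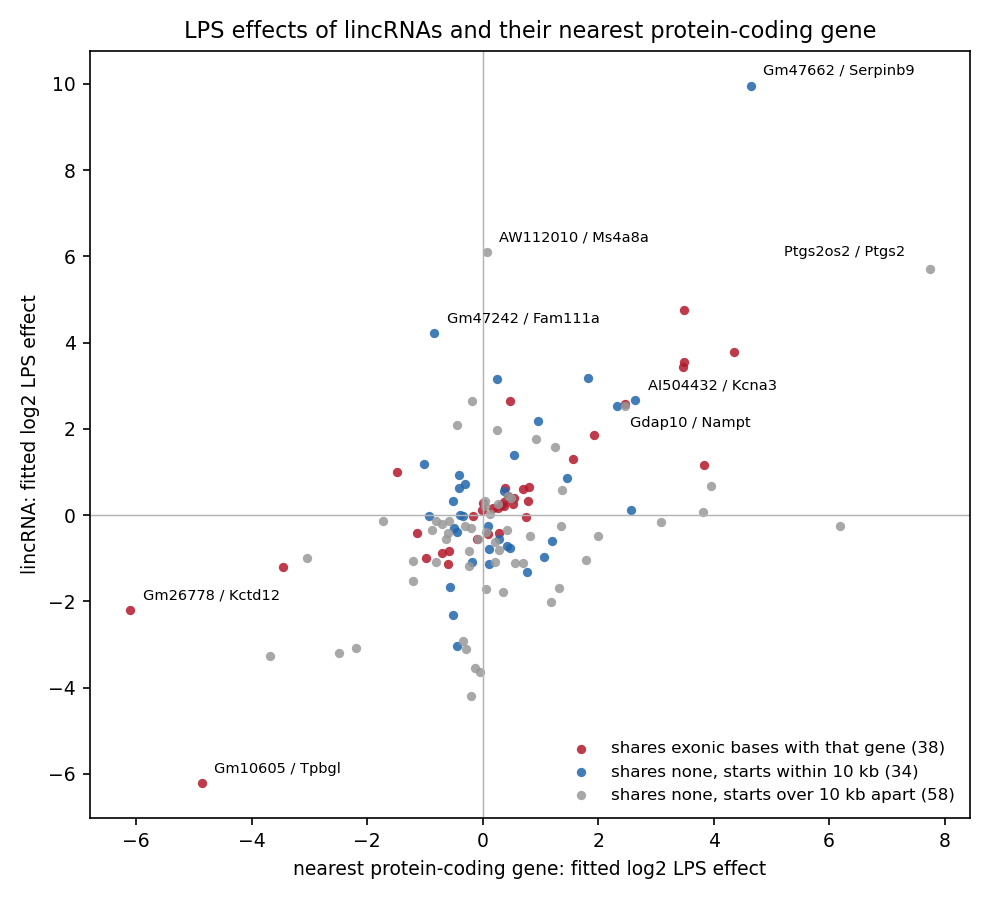
Fitted log2 LPS effect of each lincRNA (y axis) against that of its nearest protein-coding gene (x axis) for the 130 pairs in which both were tested. Pairs that share exonic bases (red, 38) lie mostly at the upper right or lower left, Ptgs2os2 with Ptgs2 and Gm47662 with Serpinb9 lie at the upper right, and AW112010 with Ms4a8a lies by the vertical axis.

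Some entries repeat the sequence of another gene, and how the counting treated reads with several positions is not stated, so their values are uncertain. Of the 169 lincRNAs, 107 had no 50-base window that also occurs, on either strand, in a transcript of a gene elsewhere, and 18 had at least 10% of their windows elsewhere. Gm26825 shared 81.8% of its windows with Hspa8, the constitutive heat-shock chaperone. It had 321 and 140 CPM with and without LPS in deficient cells, and 333 and 140 CPM with and without LPS in wild-type cells, and rose by 1.22 ± 0.18 (adjusted p = 0.0040). Hspa8, at 2467 and 1038 CPM with and without LPS in deficient cells and 2140 and 858 CPM with and without LPS in wild-type cells, rose by 1.28. Gm28901 shared 84.2% of its windows with Hnrnpf, Gm7292 77.5% with Norad, Gm26750 54.4% with Aida and Gm36161 64.3% with Gm21188.

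A cluster on chromosome 17 holds 3 lincRNA entries beside and over an annotated ribosomal RNA gene (CT010467.1). Gm26917 lies at chr17:39843013-39846341, Gm42418 at chr17:39846958-39848788 and AY036118 at chr17:39847113-39848035 (GRCm38), and RefSeq calls Gm42418 an 18S ribosomal RNA-related pseudogene, Rn18s-rs5. Gm42418 had 758 and 269 CPM with and without LPS in deficient cells, and 1838 and 326 CPM with and without LPS in wild-type cells. AY036118 had 602 and 203 CPM with and without LPS in deficient cells, and 1495 and 276 CPM with and without LPS in wild-type cells. In both, the wild-type LPS library was the highest by far. They rose with nearly the same effect, 2.0 ± 0.29 and 2.0 ± 0.27 (adjusted p = 0.0036 and 0.0027). Gm26917 rose by 1.76 ± 0.20 (adjusted p = 0.0014) but was highest in deficient cells, at 93.8 and 29.4 CPM with and without LPS, against 71.1 and 19.7 CPM with and without LPS in wild-type cells. The part of ribosomal RNA in the polyadenylated libraries was not tested. Gm26778, the fifth highest per kb, shares exonic bases with Kctd12 on the other strand and fell by 2.20 ± 0.22 (adjusted p = 0.00098), at 138 and 529 CPM with and without LPS in deficient cells and 111 and 608 CPM with and without LPS in wild-type cells. Kctd12 was at 221 and 870 CPM with and without LPS in deficient cells, but at 0 and 814 CPM with and without LPS in wild-type cells, so 1 library listed no reads for it.

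No lincRNA passed the genotype test. In the same additive edgeR model, 0 of 164 were higher and 0 lower in miR-7 deficient than in wild-type cells at an adjusted p under 0.05, against 0.385% higher and 0.165% lower among all genes tested and 0.225% and 0.150% among those protein-coding genes. The unadjusted p was under 0.05 for 14 lincRNAs (8.54%), 8 of them fitted higher in deficient cells and 6 lower, and the lowest adjusted p was 0.22. The share of all genes tested at that unadjusted limit was not taken, so the 14 are only a description and show no excess. DESeq2's Wald test called 4: AI504432 and Gm26623 higher and Gm26762 and Dubr lower in deficient cells. That test called more genes in general, with 147 higher and 81 lower over all 12730, against 49 and 21 in edgeR. The median fitted genotype effect was 0.06 on the log2 scale, against 0.02 for all genes tested. A p that misses the threshold does not show equal levels, and whatever else sets the deficient mice apart from the wild-type ones counts here as genotype.

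AI504432 had 76.6 CPM in deficient and 45.1 CPM in wild-type cells with LPS, and 17.6 CPM in deficient and 4.74 CPM in wild-type cells without. It rose with LPS (log2 effect 2.68 ± 0.32, adjusted p = 0.0018), and its genotype effect was 1.31 ± 0.31 (unadjusted p = 0.0053, adjusted p = 0.27). Kcna3, its neighbour, had a genotype effect of 0.13. Gm26762, which shares exonic bases with the glycolytic gene Gpi1, had 11.2 CPM in deficient and 33.3 CPM in wild-type cells with LPS, and 11.7 CPM in deficient and 20.9 CPM in wild-type cells without (-1.20 ± 0.26, unadjusted p = 0.0033, adjusted p = 0.22). Gpi1 had 220 CPM in deficient and 570 CPM in wild-type cells with LPS, and 276 CPM in deficient and 272 CPM in wild-type cells without. Dubr, known from mouse myoblasts as a regulator of Dppa2, had 21.8 CPM in deficient and 67.4 CPM in wild-type cells with LPS, and 18.8 CPM in deficient and 29.2 CPM in wild-type cells without (-1.13 ± 0.29, unadjusted p = 0.0075, adjusted p = 0.31). Both deficient libraries were thus below both wild-type ones for Gm26762 and Dubr. Gm7292 had 22.2 CPM in deficient and 12.4 CPM in wild-type cells with LPS, and 27.1 CPM in deficient and 15.2 CPM in wild-type cells without (0.84 ± 0.21, unadjusted p = 0.0065, adjusted p = 0.29). Norad, with which it shares sequence, had a genotype effect of -0.13. Among the other lincRNAs named by the genotype rule, fitted effects were 1.31 for E430024I08Rik, 1.37 for A330074K22Rik, 2.13 for Gm48283 and 4.14 for Gm26623, and -0.63 for Gm42047, -0.65 for AW112010, -0.88 for AY036118 and -1.07 for Gm6093. Their adjusted p lay between 0.39 and 0.87, and the effect of Gm26623 depends on a library at 0 counts.

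Single pairs of libraries differed more widely, with counting error only behind them. Between unstimulated libraries, the 95% Clopper-Pearson interval of the deficient over wild-type ratio lay wholly beyond 2-fold for 8 lincRNAs higher and 4 lower, 4.73% and 2.37% of 169, against 2.82% and 1.41% of all genes tested and 2.47% and 1.46% of the protein-coding genes chosen by level. Between LPS libraries it did so for 7 higher and 8 lower, 4.14% and 4.73%, against 2.58% and 3.04% of all genes tested and 2.25% and 3.12% of those protein-coding genes. The 169 include lincRNAs too low to be tested, which the share of all genes tested leaves out. Of the 164 tested lincRNAs, 3.66% were higher and 1.83% lower without LPS, and 4.27% and 4.88% with LPS. Of all 169, 9 passed only without LPS and 12 only with it, against 2.61% and 4.01% of all genes tested. Gm26623 was higher in both (1 lincRNA, against 0.998%), and 2, 1700001L05Rik and Gm26882, passed in opposite directions, against 0.204%. For LPS over unstimulated, 28 were higher and 28 lower beyond 2-fold in deficient cells, against 12.5% and 11.7% of all genes tested and 12.6% and 11.8% of those protein-coding genes. In wild-type cells 39 were higher and 29 lower, against 14.8% and 13.3% of all genes tested and 14.8% and 13.4% of those protein-coding genes. Of the 164 tested lincRNAs, 16.5% were higher and 16.5% lower in deficient cells, and 22% and 17.1% in wild-type cells. Both genotypes passed for 24 higher (14.2%) and 16 lower (9.47%) lincRNAs, against 10.5% and 8.63% of all genes tested. Gm28901 had 12.0 and 12.3 CPM with and without LPS in deficient cells, but 0 counts with LPS and 14.1 CPM without in wild-type cells, so the deficient LPS library was at least 132.5-fold above the wild-type one. Hnrnpf, with which Gm28901 shares most of its sequence, had 95.8 and 219 CPM with and without LPS in deficient cells and 61.9 and 199 CPM with and without LPS in wild-type cells. Kctd12 was also at 0 CPM in the wild-type LPS library. What left Gm28901 and Kctd12 without counts there was not tested, and the bound for Gm28901 covers counting error only. Gm26884 had 2.78 CPM with LPS and 0 counts without in deficient cells, and 2.17 and 1.54 CPM with and without LPS in wild-type cells. 1700001L05Rik had 1.90 and 1.61 CPM with and without LPS in deficient cells, and 5.82 and 0.406 CPM with and without LPS in wild-type cells.

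**Figure D4:**
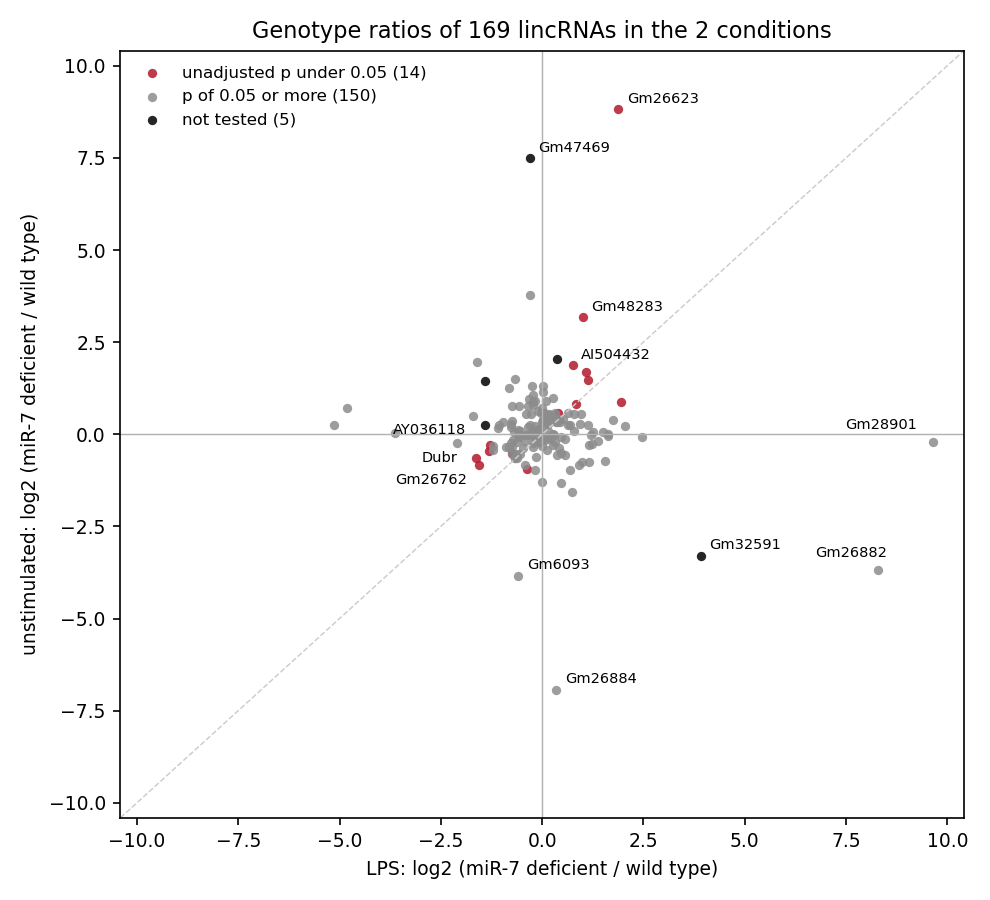
Log2 ratio of miR-7 deficient over wild-type CPM for each of the 169 lincRNAs with LPS (x axis) and without (y axis), with 0.5 counts added. Most points lie near the centre, the 14 with an unadjusted p under 0.05 (red) lie on the same side in both conditions, and Gm28901, Gm26882 and Gm26884 are far out, each with 1 library at 0 counts.

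MiR-7 seed matches were read against the genotype effects. At least 1 GTCTTCC occurred in 42 of the 169 lincRNAs (24.9%), 19 of them (11.2%) with GTCTTCCA, against 13.5% of all 5209 autosomal lincRNA genes of M21 with GTCTTCC. Among the 169, the median longest transcript was 3252.5 bases with a site and 1831 bases without. The 5209 genes were not matched to the 169 for transcript length or level, so the shares are only a description. Among tested lincRNAs, the median fitted genotype effect was -0.03 for the 19 with GTCTTCCA, 0.25 for the 22 with GTCTTCC alone and 0.12 for the 123 with no site. Of these, 0 passed the edgeR test in either direction. The precursor entry Mir7-1 had 0.187 and 0.178 CPM with and without LPS in deficient cells, and 0.302 and 0.321 CPM with and without LPS in wild-type cells. Mir7-2 and Mir7b were at 0 counts, so polyadenylated counts say little about miR-7 itself.

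Oip5os1, with the long paired site shown at the outset, is annotated as 1700020I14Rik at chr2:119594297-119607502 (GRCm38, plus strand). It had 42.2 CPM in deficient and 63.2 CPM in wild-type cells with LPS, and 108 CPM in deficient and 99.6 CPM in wild-type cells without. The deficient cells were thus lower with LPS and slightly higher without, at log2 ratios of -0.58 (95% interval -0.68 to -0.49) and 0.12 (0.06 to 0.18). The fitted genotype effect was -0.23 ± 0.23 (unadjusted p = 0.36, adjusted p = 0.95). Oip5os1 fell with LPS by 1.01 ± 0.23 (adjusted p = 0.019), at a log2 ratio of -1.36 (-1.44 to -1.28) in deficient cells and -0.66 (-0.73 to -0.58) in wild-type cells. Neat1 had a like pattern, with LPS ratios of -1.09 (-1.13 to -1.05) in deficient cells and -0.55 (-0.59 to -0.50) in wild-type cells. These intervals cover counting error only, and with 1 library in each group the difference between the LPS effects was not tested.

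In 9 lincRNAs the LPS ratios of deficient and wild-type cells pointed opposite ways, with both counting intervals clear of no change, against 8.38% of all genes tested. In 3 of them (1.78% of 169) both lay beyond 2-fold, against 0.118% of all genes tested. Gm47469, 1 of these 3, was not among the genes tested, so that share does not cover it. Gm26882, which shares exonic bases with Morf4l1, had 4.67 and 0.280 CPM with and without LPS in deficient cells, and 0 counts with LPS and 3.74 CPM without in wild-type cells. Morf4l1 had 235 and 186 CPM with and without LPS in deficient cells, and 241 and 208 CPM with and without LPS in wild-type cells. Gm26623, 27.7% of whose windows occur in the histone gene H2afz, had 1.60 and 4.84 CPM with and without LPS in deficient cells, and 0.422 CPM with LPS and 0 counts without in wild-type cells. Gm47469 had 0.534 and 1.91 CPM with and without LPS in deficient cells, and 0.664 CPM with LPS and 0 counts without in wild-type cells. The other 6 were smaller: Gm28187, Mir142hg, Gm26541, Gm26733, Gm26813 and Gm17275. Mir142hg, the host of the blood-cell microRNA miR-142, had 2.30 and 1.17 CPM with and without LPS in deficient cells, and 1.42 and 2.33 CPM with and without LPS in wild-type cells.

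**Figure D5:**
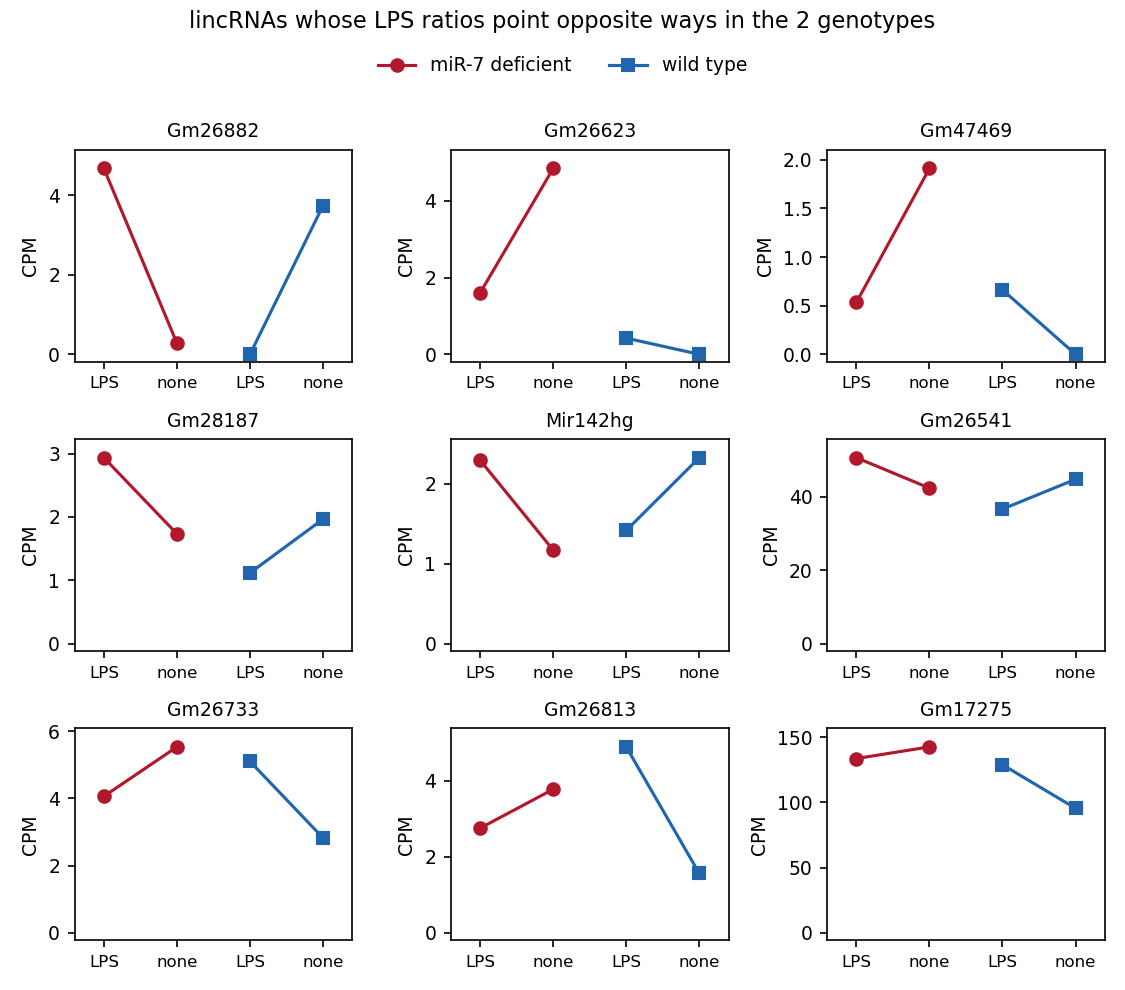
CPM after TMM scaling in the deficient (red) and wild-type (blue) libraries with LPS and without (marked none), for the 9 lincRNAs whose LPS ratios point opposite ways. Lines join the 2 libraries of a genotype, each point is 1 library, and the lines slope against each other in every panel.

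By structure, 18 lincRNAs have 1 exon in their longest form, 73 have 2 and 78 have 3 or more. Of the 65 tested lincRNAs that share no exonic base with another gene, 13 rose and 15 fell. Of 32 tested lincRNAs whose start lies within 2 kb of a coding start on the other strand, 8 rose and 4 fell. Over all genes tested 18.0% rose and 16.3% fell, and no class is set apart by a test. The 5 lincRNAs left untested had under 1 CPM of the total in at least 3 libraries. D330050G23Rik had 0.908 and 0.306 CPM with and without LPS in deficient cells, and 2.41 and 0.107 CPM with and without LPS in wild-type cells. 9130015A21Rik had 1.07 CPM with LPS and 0 counts without in deficient cells, and 2.87 CPM with LPS and 0 counts without in wild-type cells, at least 14-fold and at least 44.7-fold higher with LPS. Gm32591 had 0.214 and 0.204 CPM with and without LPS in deficient cells, and 0 counts with LPS and 2.12 CPM without in wild-type cells. 4930480K23Rik had 0.668 and 1.96 CPM with and without LPS in deficient cells, and 0.513 and 0.470 CPM with and without LPS in wild-type cells.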

How the data were processed

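Per the series' design text, polyadenylated RNA was read on a HiSeq 2000 with Casava 1.8.2 base calling, reads were trimmed with Cutadapt and aligned by TopHat 2.0.13 (Bowtie2), and Partek supplied the exon annotation. The submitters' processing notes name HTSeq and the build mm8. The authors deposited raw read counts per gene, 1 file per library, without normalization. The strand setting and the treatment of reads with several positions are not stated.

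Of 52550 IDs, 52403 (99.7%) matched GENCODE M21 (GRCm38) without versions, which gave symbols, gene types and coordinates. A gene was tested where at least 2 libraries had 1 CPM of the total or more (12730 genes). TMM factors were 0.890 and 1.16 for LPS and unstimulated deficient, and 0.846 and 1.15 for LPS and unstimulated wild-type libraries. Genotype and LPS entered 1 additive fit by edgeR 4.0.16 (on R 4.3.3 with limma 3.58.1), tested by quasi-likelihood, adjusted by Benjamini-Hochberg over all genes tested and called at 0.05. Of its degrees of freedom 1 is residual, with a prior of 5.18, and the estimated biological variation between libraries (BCV) is 0.247. A standard error is the size of the fitted log2 effect over the square root of F. Pairs of libraries were compared with exact Clopper-Pearson 95% intervals, and differences between LPS effects by ratios of ratios with 0.5 counts added. Intervals and floors (3 counts, 0.0713 to 0.0884 CPM of the total) cover counting error only, since PCR copies are not independent molecules. Nothing says which samples came from separate animals, and p-values measure only the spread between these libraries. None of the 6 pairs of libraries was identical.

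Members and lists were chosen with earlier results of these data known. Named lincRNAs were those on a list of well-known names, the 8 highest and 8 lowest called LPS effects with at least 2-fold ratios in both genotypes, the 6 highest and 6 lowest genotype effects alike in both conditions, the 4 highest and 4 lowest differences between LPS effects, the 6 highest per kb, and up to 6 with opposite LPS directions. Others are given as members of a counted group or of a gene pair, chosen after their values were seen. Alternatives were DESeq2 1.42.0 size factors and Wald test, total counts, no filter beyond 1 count, a model of LPS alone, leaving out each library, other thresholds and other member rules.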

Additional observations from a re-analysis of the deposited data

Results flagged for a closer look

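LincRNAs appear here because the LPS ratio of deficient cells pointed one way and that of wild-type cells the opposite way, with both counting intervals clear of no change. The value given is the deficient minus the wild-type log2 LPS ratio, with 0.5 counts added, and with 1 library in each group the difference was not tested. It was 11.96 for Gm26882 (95% counting interval 7.86 to 16.05), -6.94 for Gm26623 (-11.03 to -2.85) and -7.80 for Gm47469 (-11.91 to -3.70). Each of these 3 has 1 library at 0 counts, so its value depends on the added counts. It was 1.67 for Mir142hg (0.96 to 2.38), 1.56 for Gm28187 (0.86 to 2.26), 0.55 for Gm26541, -1.30 for Gm26733, -2.10 for Gm26813 and -0.53 for Gm17275. Gm28187 had 2.94 and 1.73 CPM with and without LPS in deficient cells, and 1.12 and 1.97 CPM with and without LPS in wild-type cells. Gm26541 had 50.6 and 42.3 CPM with and without LPS in deficient cells, and 36.6 and 44.7 CPM with and without LPS in wild-type cells. Gm26733 had 4.06 and 5.53 CPM with and without LPS in deficient cells, and 5.10 and 2.82 CPM with and without LPS in wild-type cells. Gm26813 had 2.75 and 3.77 CPM with and without LPS in deficient cells, and 4.89 and 1.56 CPM with and without LPS in wild-type cells. Gm17275, which shares exonic bases with H3f3a, had 134 and 143 CPM with and without LPS in deficient cells, and 129 and 95.5 CPM with and without LPS in wild-type cells.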

How the results depend on the processing

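No paired analysis was possible because each group has 1 library and all 4 carry the same replicate number, so a replicate block would not split them. Against 30 lincRNAs that rose and 29 that fell with LPS, edgeR called 15 lower with no filter beyond 1 count, and 13 higher and 15 lower among those that share no exonic base. Without the 3 entries at the ribosomal RNA gene, an alternative chosen after seeing the data, 27 rose and 29 fell. A model of LPS alone called 28 lincRNAs higher and 24 lower, and 2090 genes higher and 1835 lower over all tested. Leaving out each library in turn from that model, where the lone library is assumed to vary like the others, gave 17 to 23 lincRNAs higher (17 without the wild-type and 19 without the deficient unstimulated library) and 3 to 17 lower (3 without the deficient and 6 without the wild-type unstimulated library), and, over all genes, 1744, 1207, 1451 and 1088 higher and 1464, 768, 1247 and 588 lower without the deficient LPS, deficient unstimulated, wild-type LPS and wild-type unstimulated library, in that order. Scaling by total counts called 24 lincRNAs higher and 43 lower, and 3842 genes lower over all tested, so the balance of directions depends on scaling. For genotype, DESeq2's Wald test called 2 lincRNAs higher and 2 lower, and over all genes 147 higher and 81 lower. Size factors gave 27 genes higher, total counts 31, and no filter 18 higher and 12 lower. Beyond 4-fold, intervals held 31 lincRNAs in the deficient and 38 in the wild-type LPS pair, and 3 with LPS and 7 without in the genotype pairs. Shares of all genes at the 4-fold limit were not taken, so these counts have no background beside them. Level rules of 1 and 5 CPM kept 258 and 84 lincRNAs. Among named lincRNAs, DESeq2 lost the LPS call of Gm47662 (adjusted p = 0.050) and gained those of Pvt1 (0.039) and Gm26884 (0.034), and total counts called Snhg20, Bvht, Gm7292 and Gm42047 lower with LPS. The causes were not tested. Depth limits lincRNAs near 2 CPM.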
